A study of Mus musculus with 4 samples.

Results

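The interstitial stroma of the in vivo mouse testis was described here as the set of cell barcodes that met a rule on UMIs (unique molecular identifiers, raw counts of captured transcripts). A barcode was a member if it had at least 500 genes, at most 20% mitochondrial UMIs, at least 0.2% of its UMIs in Pdgfra, Tcf21 and Dcn together, under 0.3% in the smooth muscle genes Acta2 and Myh11, under 0.2% in the Leydig cell genes Cyp11a1, Hsd3b1 and Star, under 0.3% in the Sertoli cell genes Aard, Cst9 and Cldn11, and at most 2 UMIs of the germ cell genes Ddx4 and Dazl. The rule took 1185 of the 11631 in vivo barcodes that passed the filter on genes and mitochondrial UMIs, out of 11992 deposited in vivo barcodes and 24851 in the whole series. The study profiled testes of C57BL/6 mice carrying an Acr-Gfp transgene, a green fluorescent protein driven by a promoter that is active in germ cells. The libraries of interest came from testes taken at 9 days postpartum (dpp) and at 14 dpp without culture, and the other libraries came from 7 dpp testes cultured for 2 or 7 days. Each group was 1 library, and the labels give no number of animals. There is therefore no replicate error and no test between ages, and every interval below covers counting error only.

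The interstitium lies between the seminiferous tubules and holds fibroblast-like stromal cells, steroid-producing Leydig cells, macrophages and vessels. Stromal cells that express Pdgfra and Tcf21 are known as mesenchymal progenitors, and Leydig cells of the adult generation arise from interstitial progenitors after birth. In mice the first wave of meiosis advances inside the tubules between the ages sampled here.

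The 9 dpp library held 715 stroma barcodes among 5293 filtered barcodes, a share of 13.5% (exact Clopper-Pearson 95% interval 12.6 to 14.5). The 14 dpp library held 470 among 6338, a share of 7.42% (6.78 to 8.09). The log2 ratio of the shares, 14 dpp over 9 dpp, was -0.87 (Katz interval -1.02 to -0.71). A share depends on all other cells released from the tissue. Barcodes that passed the germ cell gate and not the myoid, Leydig or Sertoli gates numbered 2560 at 9 dpp and 3700 at 14 dpp. Without subgroup 4 of the members, described further on, the log2 ratio was -1.15, and since 85 of its 87 barcodes were from 14 dpp, leaving it out could only lower the ratio. Stroma barcodes had a median of 6002 UMIs at 9 dpp and 4770 at 14 dpp, and summed to 4621586 and 2356788 UMIs. The 2 in vivo libraries shared 37 deposited barcode sequences, and 0 of these were members in both.

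The summed share of Pdgfra, Tcf21 and Dcn, which chose the members, had a median of 0.628% at 9 dpp (lowest 0.201, highest 2.84) and 0.735% at 14 dpp (lowest 0.215, highest 3.16). Between 0.20% and 0.25% lay 27 members at 9 dpp and 11 at 14 dpp. Just outside, between 0.15% and 0.20%, lay 27 and 9 barcodes that met every other condition. The Scrublet doublet caller marked 143 barcodes in each library, of which 1 and 2 were members.

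The markers that the rule did not use, Clec3b and Dlk1, fitted the label of stroma. Tcf21 and Pdgfra were also present in barcodes of the gate for peritubular myoid cells, the contractile cells of the tubule wall. Levels are given as CPM, the summed UMIs of a gene divided by all UMIs of the barcodes and scaled to a common total. The levels of Dcn, Pdgfra and Tcf21 are a description, since these genes chose the members. Dcn, which encodes the collagen-binding proteoglycan decorin, stood at 5693 CPM in the 9 dpp stroma and 6811 CPM in the 14 dpp stroma, against 102 CPM in all other filtered barcodes at both ages. Pdgfra, a receptor for platelet-derived growth factor, stood at 334 and 286 CPM, and Tcf21, a transcription factor of mesenchymal progenitors, at 597 and 436 CPM. Barcodes were classed as myoid if they passed the myoid gate and not the Leydig, Sertoli or germ gates. The condition on Pdgfra, Tcf21 and Dcn was not applied to them, so this class can hold barcodes rich in these genes. The myoid barcodes held 247 and 211 CPM of Pdgfra and 1017 and 749.6 CPM of Tcf21. Tcf21 was thus higher there than in the stroma. Clec3b, which encodes the plasminogen-binding lectin tetranectin (chr9:123150946-123157432, GRCm38), stood at 332 CPM (Poisson 95% interval 316 to 349) at 9 dpp and 834 CPM (798 to 872) at 14 dpp, against 2.39 and 11.0 CPM in the myoid barcodes. Dlk1, an imprinted gene for a membrane protein of immature cells (chr12:109452823-109463336, GRCm38), stood at 5239 CPM (5174 to 5306) and 1516 CPM (1467 to 1567), against 93.8 and 31.6 CPM in the myoid barcodes.

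**Figure D1:**
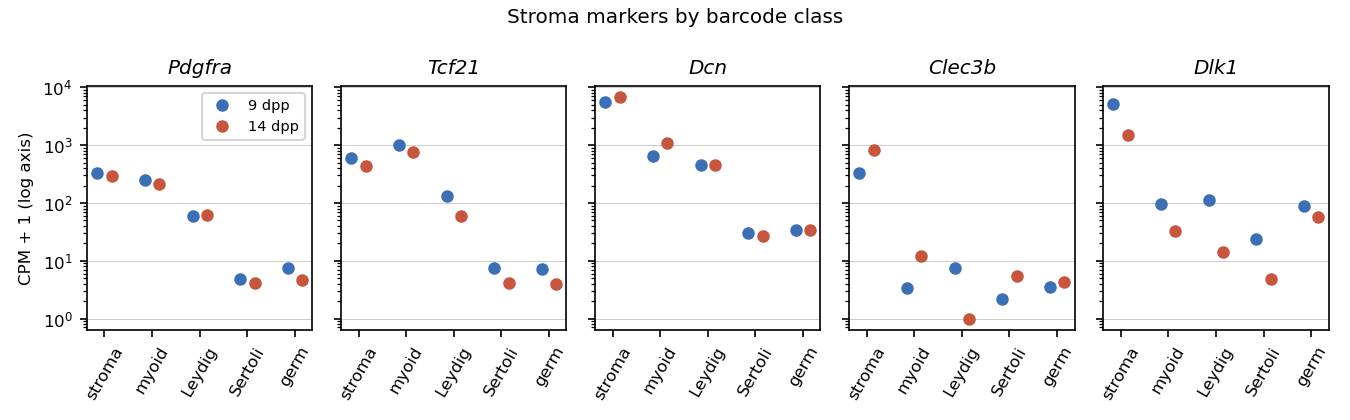
CPM plus 1 (log axis) of the 5 stroma markers in barcodes of the stroma rule and of the myoid, Leydig, Sertoli and germ gates, with 1 point per library (9 dpp blue, 14 dpp red). Clec3b and Dlk1, which the rule did not use, were above every other class at both ages, while Tcf21 was higher in the myoid barcodes. Barcodes of the other classes could also meet the stroma condition on Pdgfra, Tcf21 and Dcn.

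Across the 9058 genes with at least 50 UMIs over both libraries, the stroma held 579 genes (6.39%) at least 4-fold above all other filtered barcodes at both ages, a description since the rule chose these cells. After the rule's own genes were left out, those with the largest smaller ratio began with Clec3b, Lum, Dpt, Mfap5 and Efemp1. Lum, which encodes the proteoglycan lumican, stood at 329 CPM at 9 dpp and 237 CPM at 14 dpp, against 2.27 and 1.11 CPM in the other barcodes. Dpt, which encodes the matrix protein dermatopontin, stood at 134 and 121 CPM, against 1.18 and 0.610 CPM. Next came the imprinted long noncoding RNA Meg3, the chemokine gene Cxcl12, S100b, Dlk1, Inhba, which encodes an activin subunit, the opioid peptide precursor Penk, Sostdc1, Cd248, the transcription factor Osr1 and Cd34. Cxcl12 stood at 797 and 675 CPM, against 18.0 and 15.8 CPM elsewhere, and Cd34 at 649 and 627 CPM, against 22.7 and 18.0 CPM.

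Between 9 and 14 dpp the stroma markers outside the rule went in opposite directions. Clec3b was higher at 14 dpp by a log2 ratio of CPM plus 1 of 1.33 (interval of the ratio without the added constant 1.23 to 1.43), and Dlk1 was lower by a log2 ratio of -1.79 (-1.84 to -1.74). Pdgfra, Tcf21 and Dcn had ratios of -0.22, -0.45 and 0.26. Of the 9058 genes, 213 (2.35%) were at least 2-fold higher at 14 dpp and 233 (2.57%) at least 2-fold lower, and the median ratio of all was -0.03. Dlk1 was lower at 14 dpp also in the myoid (-1.54), Leydig (-3.01), Sertoli (-2.33) and germ (-0.64) barcodes, at levels of at most 112 CPM, and the part of RNA released from stroma cells in those values was not tested.

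Shares of barcodes with a UMI went in the same directions as the levels. To set both ages at 1 depth, 700 members at 9 dpp and 433 at 14 dpp were thinned to 2000 UMIs, which left out 15 and 37 shallower members. At least 1 Dlk1 UMI was then found in 95.3% (93.4 to 96.7) of the 9 dpp members and 63.3% (58.5 to 67.8) of the 14 dpp members, against 98.6% and 74.3% without thinning. Germ barcodes, which should lack the gene and had been thinned alike, gave 11.9% and 7.26%. Clec3b was found in 37.4% (33.8 to 41.1) and 66.5% (61.9 to 70.9), against 56.1% and 77.7% without thinning and 0.354% and 0.382% in germ barcodes. Members with Dlk1 but no Clec3b made up 58.7% at 9 dpp and 13.9% at 14 dpp. Members with Clec3b but no Dlk1 made up 0.857% and 17.1%, those with both 36.6% and 49.4%, and those with neither 3.86% and 19.6%.

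**Figure D2:**
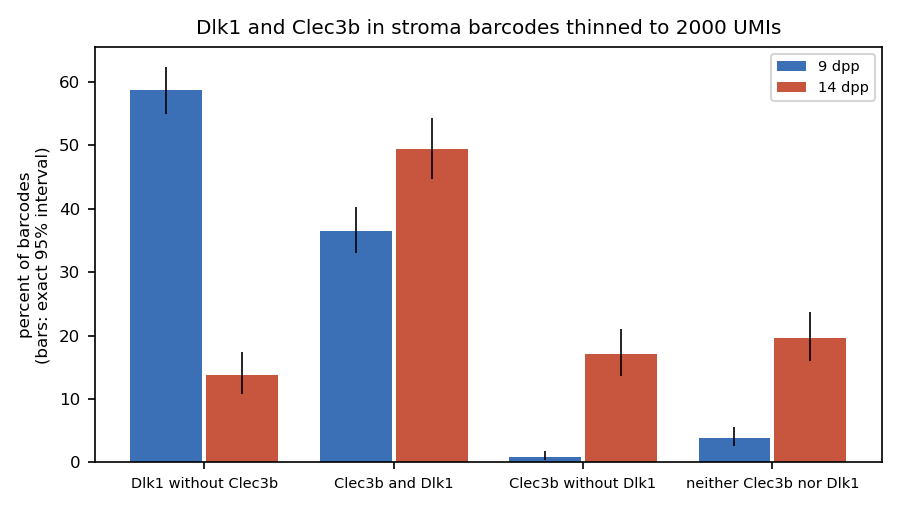
Percent of stroma barcodes, thinned to 2000 UMIs, with a UMI of Dlk1 only, of both genes, of Clec3b only or of neither, at 9 dpp (blue) and 14 dpp (red), with exact 95% intervals. The class with Dlk1 alone went from 58.7% to 13.9% the class with Clec3b alone from 0.857% to 17.1% and the class with neither from 3.86% to 19.6%.

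Imprinted growth genes, many of which are active in fetal and neonatal tissue and fall silent as organs mature, were lower in most cases. Of 25 listed genes 18 had 50 UMIs or more, with a median ratio of -0.43. Of these 5 were at least 2-fold lower and 0 at least 2-fold higher, against 2.57% and 2.35% of all genes. Dlk1, given above, is among the 5. The interval lay below 0 for 13 of them and above 0 for 1, against 1574 and 1318 of all 9058 genes. An interval narrows as UMIs rise, so such counts depend on the levels of the genes, here and in every list below. They describe the list and do not test it. H19, a noncoding RNA of the locus of Igf2, stood at 407 CPM at 9 dpp and 56.0 CPM at 14 dpp (-2.84; -3.13 to -2.61). Mest stood at 450.1 and 144 CPM (-1.64), Cdkn1c, an inhibitor of cyclin-dependent kinases, at 338 and 117 CPM (-1.53), and Plagl1, a zinc finger transcription factor, at 239 and 86.1 CPM (-1.46). Meg3, from the same imprinted cluster as Dlk1, stood at 3591 and 2368 CPM (-0.60). H19 was also lower at 14 dpp in the myoid (-2.75), Leydig (-5.11) and Sertoli (-2.89) barcodes. Cdkn1c had ratios of -0.33 in the myoid and -0.34 in the Sertoli barcodes.

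Most of the cell cycle genes had an interval below 0 as well. All 25 listed genes reached 50 UMIs, 6 were at least 2-fold lower and 0 at least 2-fold higher, and their median ratio was -0.66, against 2.57% of all genes at least 2-fold lower and a median of -0.03. The interval lay below 0 for 20 of them and above 0 for 0, against 1574 and 1318 of all 9058 genes. Plk1, a mitotic kinase, stood at 23.6 CPM at 9 dpp and 7.64 CPM at 14 dpp (-1.51), and Nusap1, a spindle protein, at 59.1 and 21.6 CPM (-1.41). Mki67, the classic marker of cycling cells, stood at 34.6 and 29.7 CPM, a ratio of -0.21 whose interval reached 0.19. In members thinned to 2000 UMIs, 13.0% (10.6 to 15.7) at 9 dpp and 8.08% (5.69 to 11.1) at 14 dpp held at least 3 UMIs of the list. Without the subgroup led by these genes the median was -0.29.

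Among genes of the extracellular matrix, the fibrillar collagens named here had ratios within 2-fold and a small set of other genes was lower. Over all genes, 2.35% were at least 2-fold higher and 2.57% lower, the shares to set beside the counts that follow. Of 17 collagens with 50 UMIs or more, 1 was at least 2-fold lower and 0 higher, and the median ratio was 0.08. Col1a1 stood at 1763 and 1501 CPM, Col1a2 at 2334 and 2516 CPM and Col3a1 at 2183 and 1965 CPM, ratios of -0.23, 0.11 and -0.15. The collagen past the threshold was the membrane-bound Col13a1, at 78.3 and 28.9 CPM (-1.41). Of 24 matrix glycoproteins and proteoglycans, 4 were at least 2-fold lower and 1 higher. Their interval lay above 0 for 9 and below 0 for 11, against 1318 and 1574 of all 9058 genes. Postn, which encodes periostin, stood at 57.8 and 7.21 CPM (-2.84; -3.80 to -2.30), and Aspn, which encodes asporin, at 29.2 and 2.97 CPM (-2.93). Emilin1 and Vcan had ratios of -1.51 and -1.42. The gene on the other side was Mgp, matrix Gla protein, an inhibitor of calcification, at 581 and 1463 CPM (1.33; 1.26 to 1.41). Among 16 matrix proteases and inhibitors, 2 proteases were at least 2-fold lower. Htra3, a secreted serine protease, stood at 1960 and 625 CPM (-1.65; -1.73 to -1.57), and Mmp2, a gelatinase, at 122 and 55.2 CPM (-1.13). Of 15 collagen processing enzymes 1, P3h2, was at least 2-fold lower, at 43 and 7 UMIs. Markers of other cell types moved between the ages in the same members. The summed peritubular myoid markers stood at 1141 and 717 CPM and the summed germ cell markers at 57.3 and 119.7 CPM, with 3 of the 4 germ markers tested at least 2-fold higher. Members with at least 3 myoid markers made up 51.2% and 29.1%, at unequal depth. The part of these shifts in the levels of the matrix genes and of the other lists was not tested.

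In the growth factor pathways most members lay within 2-fold between the ages, and at most 4 genes of a list were past the threshold, which 2.35% of all genes passed upward and 2.57% downward. In the hedgehog pathway, through which desert hedgehog from Sertoli cells is known to act on the interstitium, the receptor Ptch1 stood at 116 and 106 CPM and the target Gli1 at 53.0 and 53.5 CPM. Hhip, a decoy that binds the ligand, stood at 80.7 and 29.3 CPM (-1.43; -1.86 to -1.09) and was the 1 gene of 9 past the threshold. In the insulin-like growth factor pathway, 6 of 10 genes had an interval above 0 and 3 below 0, against 1318 and 1574 of all 9058 genes, and 1 was at least 2-fold lower. The ligand Igf1 stood at 551 and 929.7 CPM (0.75; 0.67 to 0.84), the binding proteins Igfbp7 at 2245 and 3756 CPM (0.74) and Igfbp6 at 1293 and 1967 CPM (0.61), and Igfbp5 at 37.0 and 11.9 CPM (-1.56). The median of this list was 0.45, and 0.10 when each cell counted equally. In the transforming growth factor beta and BMP pathway, 3 of 22 genes were at least 2-fold higher, the activin antagonist Fst at 14.7 and 39.9 CPM (1.38), Bmp2 at 5.63 and 14.4 CPM (1.22) and the BMP antagonist Chrdl1 at 55.6 and 113 CPM (1.01). The activin subunit Inhba stood at 301 and 121 CPM (-1.31; -1.51 to -1.13) and was the 1 gene at least 2-fold lower. In the WNT pathway 1 of 10 genes was at least 2-fold lower, the secreted protein Dkk3, at 66 and 8 UMIs. Of 4 Notch and 3 PDGF pathway genes tested, 0 passed the threshold.

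Factors that stromal cells are known to supply to neighbouring cells included 2 of 9 at least 2-fold higher, against 2.35% of all genes. Their interval lay above 0 for 2 and below 0 for 2, against 1318 and 1574 of all 9058 genes. Kitl, the ligand of the KIT receptor of Leydig and germ cells, stood at 44.6 and 97.2 CPM (1.11; 0.85 to 1.40), and Csf1, the growth factor of macrophages, at 27.5 and 69.2 CPM (1.30; 0.99 to 1.68). Of 8 hormone receptors 2 were likewise at least 2-fold higher against that 2.35%, the glucocorticoid receptor gene Nr3c1 at 58.6 and 129 CPM (1.13; 0.90 to 1.38) and the receptor of anti-Müllerian hormone, Amhr2, at 8.66 and 19.5 CPM (1.09). Among the interstitial transcription factors Nr2f2, a nuclear receptor of interstitial cells, stood at 306 and 325 CPM (0.09). In the retinoid pathway 1 of 11 was at least 2-fold higher, the retinol carrier Rbp4, with 26 and 30 UMIs. The list does not hold Lrat, which esterifies retinol and was higher at 14 dpp (3.73, from 4 and 56 UMIs). Cyp26b1, which degrades retinoic acid, stood at 268 and 359 CPM (0.42).

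Immune and adventitial genes were higher in part. Of 12 genes of the interferon response and MHC class I 4 were at least 2-fold higher and 0 at least 2-fold lower, with a median of 0.70, against 2.35% and 2.57% of all genes. The interval lay above 0 for 7 of them and below 0 for 2, against 1318 and 1574 of all 9058 genes. The list does not hold the interferon-inducible Ifi204, which was lower at 14 dpp (-2.51). The MHC class I genes H2-K1 and H2-D1 stood at 19.5 and 75.1 CPM (1.89; 1.57 to 2.33) and at 24.5 and 85.7 CPM (1.77; 1.47 to 2.15), and as close homologues they may share reads. Ifitm3 stood at 424 and 949.6 CPM (1.16), whereas its neighbours Ifitm1 and Ifitm2 had ratios of -0.40 and -0.41. Of 6 complement genes 1, C2, was at least 2-fold higher, at 162 and 332 CPM (1.03), and the inhibitor Serping1 stood at 637 and 1041 CPM (0.71). Of 10 genes known from adventitial fibroblasts, 7 had an interval above 0 and 2 below 0, and 2 were at least 2-fold higher against the 2.35% of all genes, Ly6a, the stem cell antigen Sca-1, at 6.27 and 57.7 CPM (3.01; 2.61 to 3.83) and Ly6c1 at 3.25 and 27.2 CPM (2.73). Both lie in a family of close homologues on chromosome 15. Of the 29 Ly6a UMIs at 9 dpp, 13 came from 1 barcode. Among 6 lipid and adipogenic genes the transcription factor Cebpd stood at 154 and 446 CPM (1.52), the lipoprotein Apoe at 530.3 and 1190.2 CPM (1.16) and Cebpb at 48.5 and 21.6 CPM (-1.13).

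Macrophage markers moved with these immune genes but sat in few barcodes. Their summed level was 67.5 CPM at 9 dpp and 252 CPM at 14 dpp. Of the 6 tested 5 were at least 2-fold higher, against 2.35% of all genes, and 0 of the 10 listed were at 0 UMIs in either library. The 2 members with the most held 92.9% of these UMIs at 9 dpp and 97.1% at 14 dpp, and 24 and 17 members held any. The part of these barcodes in the levels of the immune genes was not tested.

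**Figure D3:**
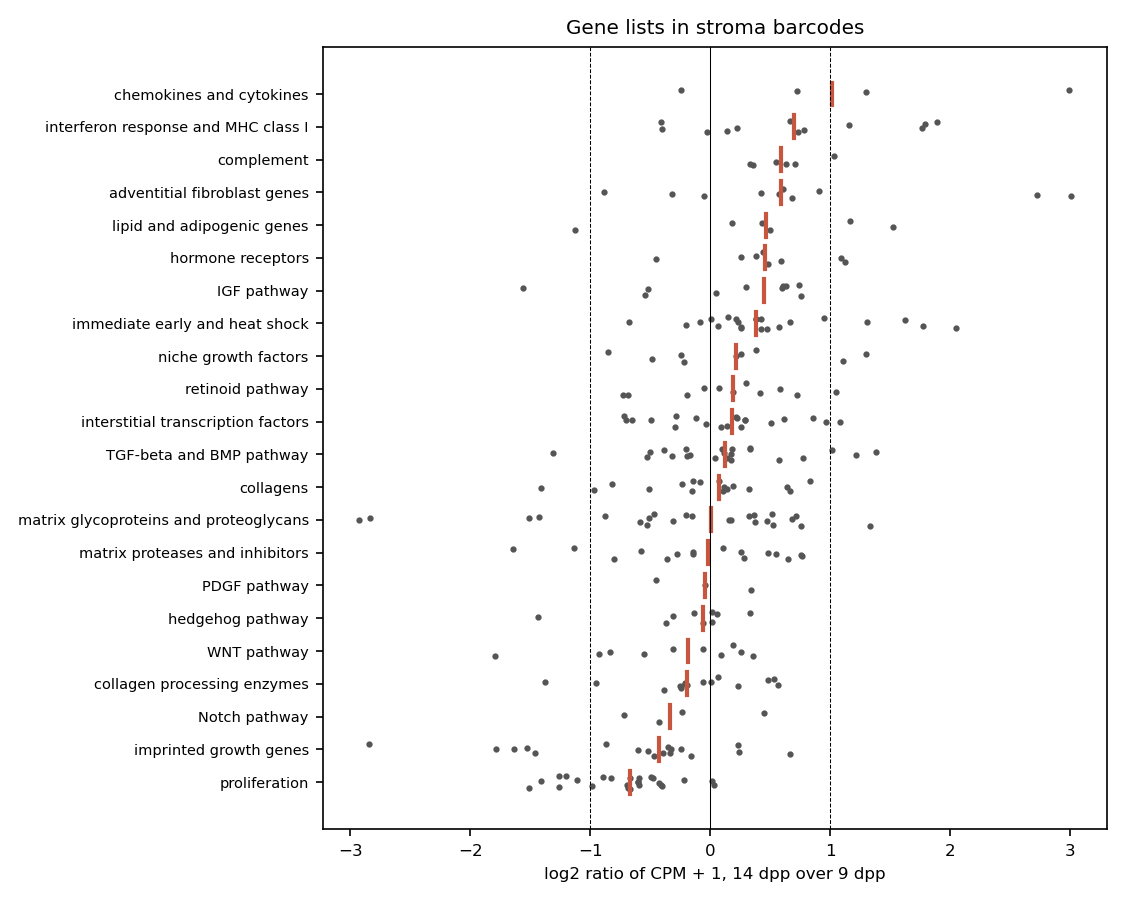
Log2 ratio of CPM plus 1, 14 dpp over 9 dpp, for the genes of 22 lists with at least 50 UMIs (grey points) and the list medians (red bars), with dashed lines at 2-fold. The medians ran from -0.66 for the cell cycle genes to 1.01 for the 4 tested chemokines and cytokines, against -0.03 over all genes.

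The heat shock and immediate early genes, which are known to respond within minutes to stress such as tissue dissociation, differed by gene. Of 22 tested 4 were at least 2-fold higher at 14 dpp and 0 lower, with a median of 0.38, against 2.35% and 2.57% of all genes and a median of -0.03. The 70 kDa heat shock protein genes Hspa1a and Hspa1b, which lie side by side on chromosome 17, are shown because they moved together. Below are the 250 bases upstream of each start in RefSeq on GRCm38.p6, on the minus strand, with capitals for the facing sites GAANNTTC that heat shock factors can bind.
Hspa1a chr17:34972157-34972406: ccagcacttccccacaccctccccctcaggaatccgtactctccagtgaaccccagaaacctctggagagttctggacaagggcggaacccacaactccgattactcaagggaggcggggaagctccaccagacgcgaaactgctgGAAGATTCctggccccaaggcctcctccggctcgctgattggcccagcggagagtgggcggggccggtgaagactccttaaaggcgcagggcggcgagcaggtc
Hspa1b chr17:34959239-34959488: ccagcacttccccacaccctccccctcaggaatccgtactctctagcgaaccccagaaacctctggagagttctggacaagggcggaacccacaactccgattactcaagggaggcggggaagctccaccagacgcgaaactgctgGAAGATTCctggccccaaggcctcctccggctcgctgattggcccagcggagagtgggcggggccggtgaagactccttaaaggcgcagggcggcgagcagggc
The windows differ at 3 of 250 positions and hold the motif at the same place, from 104 to 97 bases before the start. The motif reads the same on both strands and was found in 6.69% of 32851 windows of this length. It was also in the windows of Hspb1 and Jun, and not in those of Dnajb1, Hsph1, Fos, Junb, Dusp1 and Ier3.

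Hspa1a stood at 145 CPM at 9 dpp and 601 CPM at 14 dpp (2.05; 1.92 to 2.19), and Hspa1b at 8.66 and 28.9 CPM (1.63; 1.15 to 2.34). As near-identical copies they may share reads, so their separate levels are uncertain. In members thinned to 2000 UMIs, 14.9% (12.3 to 17.7) at 9 dpp and 47.8% (43.0 to 52.6) at 14 dpp held an Hspa1a UMI, against 3.58% and 2.24% of the germ barcodes. The small heat shock protein gene Hspb1 stood at 40.5 and 78.9 CPM (0.95) and Jun at 666 and 928 CPM (0.48). Dnajb1, a cochaperone, stood at 99.1 and 157 CPM (0.66) and Hsph1 at 16.2 and 9.76 CPM (-0.68). The phosphatase gene Dusp1 stood at 132 and 328 CPM (1.31), Ier3 at 26.0 and 91.2 CPM (1.77), Fos at 1012 and 1511 CPM (0.58) and Egr1 at 379 and 381 CPM (0.01). Hspa1a had a ratio of 2.00 in the myoid and -0.90 in the Sertoli barcodes of the same libraries. Handling of the tissue and age cannot be told apart, since each age was 1 library.

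The genes with the largest ratios included steroidogenic genes that came mostly from 1 small subgroup. Hsd3b6, an isoform of the steroid dehydrogenase of adult Leydig cells, had 2 UMIs at 9 dpp and 170 at 14 dpp (0.433 and 72.1 CPM, interval of the log2 ratio 5.51 to 10.4). Mrap, an accessory protein of the corticotropin receptor, stood at 1.73 and 27.2 CPM (3.37), and Bhmt, a methyltransferase of the methionine cycle, at 5.84 and 51.3 CPM (2.94). Of the 14 dpp UMIs, 85.3% of Hsd3b6, 89.1% of Mrap and 64.5% of Bhmt came from 40 barcodes led by Leydig genes, of which 36 were from 14 dpp. Without that subgroup the ratio was 3.21 for Hsd3b6, 0.81 (-0.57 to 2.91) for Mrap and 1.78 for Bhmt. The value for Hsd3b6 rested on few UMIs, since 145 of the 170 at 14 dpp lay in that subgroup. Among the subgroups described further on, Hsd3b6 stood at 30.1 CPM in subgroup 5, led by cell cycle genes, and 12.9 CPM in subgroup 4. It stood at 1.12 CPM in subgroup 3 and at 0 CPM in subgroups 1, 2, 6 and 8. Of 10 Leydig markers tested 6 were at least 2-fold higher at 14 dpp, against 2.35% of all genes, 1 of the 11 listed (Hsd17b3) was at 0 UMIs at 14 dpp, and the summed level was 335 and 772 CPM, against 19433 and 14004 CPM in the Leydig gate. The rule caps Cyp11a1, Hsd3b1 and Star in the members and the Leydig gate selects on them, so this gap is partly set by the rule. Without those genes the members' sum was 314 and 665 CPM.

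Other genes with large positive ratios drew fewer of their 14 dpp UMIs from the subgroup led by Leydig genes, from 0% for Mustn1 to 38.6% for Neat1. Ms4a4d, of the membrane-spanning 4A family, stood at 19.04 and 162 CPM (3.02; 2.75 to 3.44) and had a UMI in 3.29% (2.09 to 4.89) and 25.2% (21.2 to 29.5) of the members thinned to 2000 UMIs, against 0.354% and 0.191% of the germ barcodes. Slfn5, a Schlafen gene, stood at 9.74 and 76.4 CPM (2.85; 2.49 to 3.48). Lrat stood at 0.866 and 23.8 CPM (3.73), with 4 and 56 UMIs. Mustn1 stood at 10.6 and 58.1 CPM (2.35), Pianp at 4.11 and 29.7 CPM (2.59) and the nuclear noncoding RNA Neat1 at 4.33 and 29.7 CPM (2.53), with 27 of its 70 UMIs at 14 dpp from that subgroup. The chemokine gene Cxcl14 stood at 1.95 and 22.5 CPM (2.99). Its 53 UMIs at 14 dpp lay in 24 members, and 16 of them came from 1 barcode. In the myoid barcodes the ratio was 3.79 for Ms4a4d, 3.49 for Pianp, 2.20 for Slfn5 and 1.87 for Mustn1. It was 1.44 for Neat1, 1.21 for Lrat and -1.57 for Cxcl14. At 14 dpp Mustn1 and Pianp stood at 107 and 44.3 CPM in the myoid barcodes, above the stroma.

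Among the genes with large negative ratios, the water channel gene Aqp1 had 114 UMIs at 9 dpp, in 8.67% of the members, with 27 of the UMIs in 1 barcode, and 0 at 14 dpp. Set against 3 UMIs over the 14 dpp members it was at least 19.4-fold lower, a bound that takes the 9 dpp count as exact. The interval that includes the counting error of both ages ended at a log2 ratio of -3.95, a smaller difference. Rxfp1, the relaxin receptor, stood at 21.2 and 1.70 CPM (-3.04), Sapcd1 at 37.0 and 5.09 CPM (-2.64) and Crispld1 at 34.2 and 4.67 CPM (-2.63). The potassium channel partner Kcnip1 stood at 24.0 and 3.39 CPM (-2.51) and the cation channel Trpm5 at 22.9 and 3.39 CPM (-2.45). In the 9 dpp myoid barcodes Sapcd1, Crispld1 and Kcnip1 were above the stroma, at 64.0, 45.6 and 114 CPM. Rxfp1 and Trpm5 were below it, at 0.651 and 8.03 CPM. The part of myoid RNA in the stroma ratios was not tested. The interferon-inducible Ifi204 stood at 149.7 and 25.5 CPM (-2.51), and was lower also in the myoid (-4.89), Leydig (-4.98) and Sertoli (-4.92) barcodes. Gm10320 (91.3 and 2.55 CPM) and Tpm3-rs7 (85.3 and 5.52 CPM) were lower in every class as well, with ratios of -3.88 and -3.89 in the myoid and -4.08 and -3.70 in the germ barcodes. Ifi204 belongs to a family of close homologues, and Tpm3-rs7 is named as a sequence related to Tpm3, so their counts are uncertain.

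**Figure D4:**
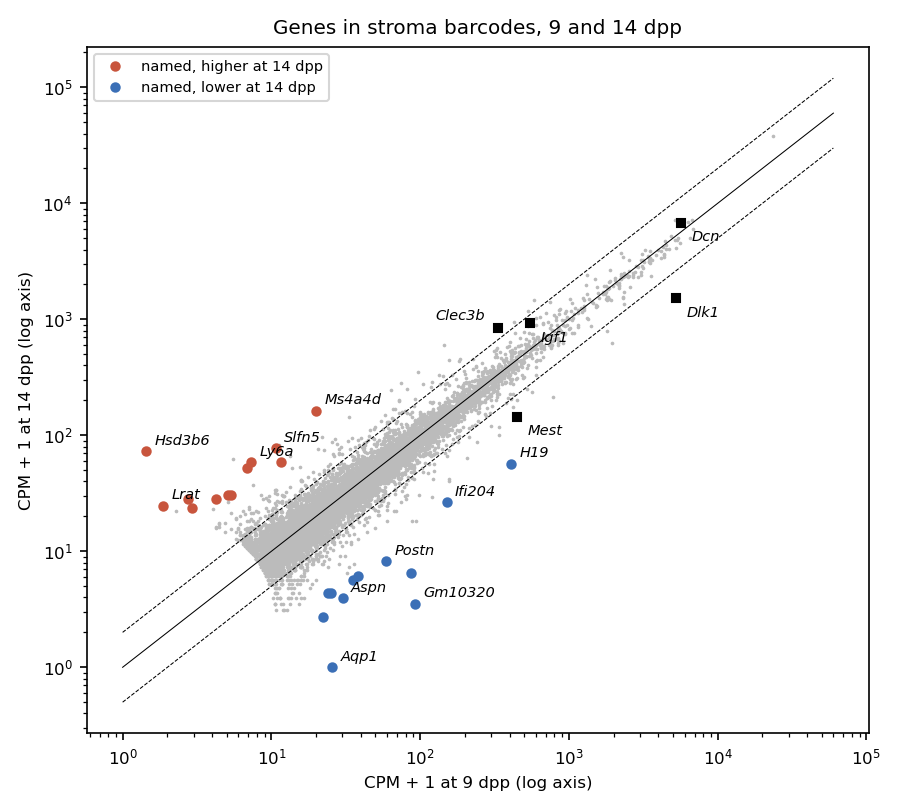
CPM plus 1 of 9058 genes in the stroma at 9 dpp and 14 dpp (log axes), with the solid line at equal levels and the dashed lines at 2-fold. Red and blue points are the genes named for the largest ratios in each direction, and black squares are Dlk1, Clec3b, Dcn, Mest and Igf1.

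The members of both ages fell into 8 subgroups by Leiden clustering, which mostly separated the ages. These shares are a description, since clusters were made from the same genes. Subgroup 1, led by the angiotensin receptor gene Agtr2, Dlk1 and the protease inhibitor Serpine2, held 327 members from 9 dpp and 2 from 14 dpp. Subgroup 2, led by Mustn1, Ly6a, Slfn5, Ms4a4d and Clec3b, held 5 and 311. Its macrophage markers summed to 622.6 CPM, against at most 8.60 CPM in each other subgroup, but 2 members of each library held nearly all macrophage UMIs of the stroma, as given above, so this sum does not describe its 316 barcodes in general. Subgroup 3, led by C1qtnf3, Clca3a1, Asb2 and the smooth muscle actin gene Acta2, held 243 and 8. Its summed myoid markers, which include Acta2 and Myh11 of the rule, were 1527 CPM, below the 2022 CPM of subgroup 8 and above the other subgroups, which ran from 514 CPM in subgroup 7 to 1112 CPM in subgroup 5. Subgroup 4, with 2 and 85 members, was led by Tnni3, Spata7 and Car14 and by the germ cell genes Sycp1 and Tex101, with germ markers at 230.0 CPM and 2 Scrublet calls. Sycp1 was found in 10.3% and Tex101 in 16.1% of its barcodes, and 13 of the 87 had a UMI of the germ gate. That share was higher in subgroups 6 (15 of 71), 7 (9 of 40) and 8 (5 of 19), and lower in subgroups 1, 2, 3 and 5. Subgroup 5 held 54 and 18 members and was led by the cell cycle genes Pclaf, Nusap1 and Top2a. Subgroup 6 held 71 and 0, led by Postn, Krtdap and Crip1, with Postn at 298 CPM against 21.1 CPM in the other members. Subgroup 7 held 4 and 36 and was led by Ren1, Cyp17a1, Hsd3b6 and Star. Its Leydig markers were at 4204 CPM. Of the 8 subgroups it had the lowest Tcf21, at 164 CPM, and the lowest Pdgfra, at 201 CPM, and its Dcn of 3400 CPM was near the 3309 CPM of subgroup 3 and below the 8382 CPM of subgroup 2. Its Dlk1 stood at 259 CPM, against 2013 CPM in subgroup 3 and 243 CPM in subgroup 4. Subgroup 8, with 9 and 10 members, was led by Cxcl14, the Notch target Heyl and the elastin gene Eln, with Acta2 at 647 CPM against 351 CPM in subgroup 3.

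**Figure D5:**
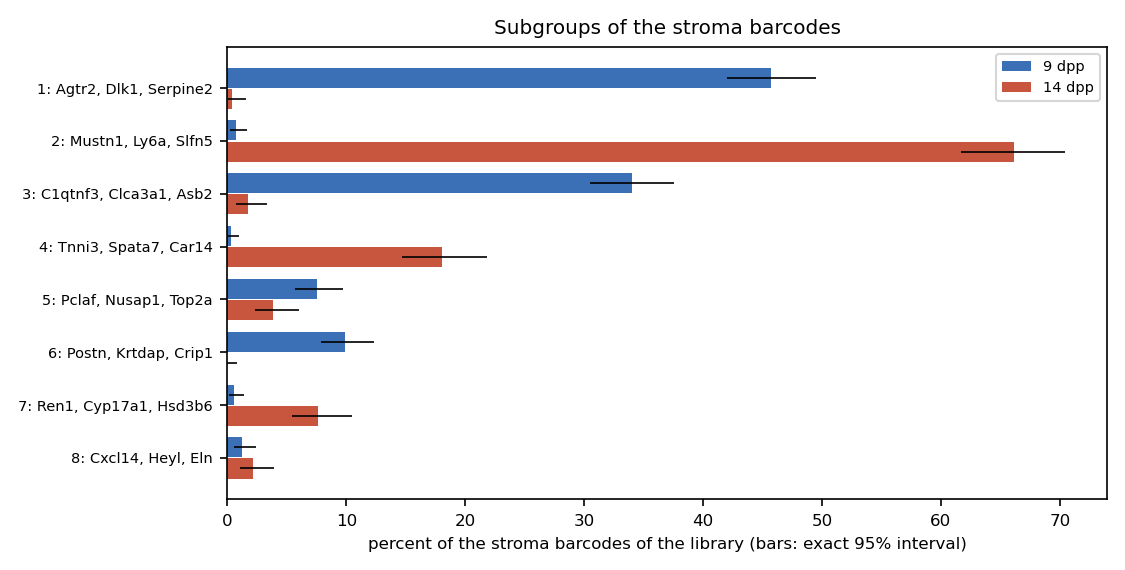
Percent of the stroma barcodes of each library in the 8 subgroups, with the 3 leading genes of each and exact 95% intervals. Subgroups 1, 3 and 6 were mostly from 9 dpp (blue) and subgroups 2, 4 and 7 mostly from 14 dpp (red).

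When each age was clustered on its own, an alternative chosen after the joint result was seen, 5 groups were found at 9 dpp and 6 at 14 dpp, and some leading genes recurred. A group with Asb2 and C1qtnf3 among its first 4 leading genes held 210 members (29.4%) at 9 dpp and 95 (20.2%) at 14 dpp. At 9 dpp its list was Ren1, Cpz, C1qtnf3, Asb2, Aldh3a1 and the Leydig gene Insl3, of which Ren1, Insl3 and Aldh3a1 also led the Leydig group at 14 dpp. The steroidogenic Cyp17a1 had 142 UMIs in the 9 dpp group and 0 in the 14 dpp group, but only 13 of all 715 members at 9 dpp held a Cyp17a1 UMI, so these came from few barcodes. Of the 210 members of the 9 dpp group, 199 were in subgroup 3 of the joint clustering. Of the 95 members of the 14 dpp group, 79 were in subgroup 4. In the group with Asb2 and C1qtnf3, Asb2 stood at 191 CPM against 22.0 CPM in the other 9 dpp members. At 14 dpp it stood at 155 against 23.4 CPM. Dlk1 was low in this group at both ages, at 1731 against 7048 CPM and at 236 against 1843 CPM. Clec3b was low as well, at 61.1 against 472 CPM and at 339 against 960.5 CPM. At 14 dpp this was not particular to it, since the Leydig group held Dlk1 at 222 CPM and Clec3b at 78.8 CPM. A group with Crip1, Crip2 and Mustn1 among its leading genes held 99 members (13.8%) at 9 dpp and 77 (16.4%) at 14 dpp. Of these, 65 were in subgroup 6 and 77 in subgroup 2 of the joint clustering. The first gene of the 9 dpp group, Postn, stood at 286 CPM there and at 14.7 CPM, from 6 UMIs, in the 14 dpp group, so the groups matched in part. In it Clec3b stood at 938 against 229 CPM at 9 dpp and at 1570.5 against 680.0 CPM at 14 dpp, and Pi16, a gene of adventitial fibroblasts, at 67.3 against 18.2 CPM and 125 against 20.01 CPM. Another 14 dpp group, led by Agtr2, Lpl and Dpt with 62 members (13.2%), held a like level of Clec3b, 1627 CPM. A group with Fcgr2b and Col15a1 among its leading genes held 171 members (23.9%) at 9 dpp and 177 (37.7%) at 14 dpp. Fcgr2b stood there at 91.3 against 20.5 CPM and at 187 against 52.1 CPM. The 9 dpp group led by Cd82 and Mrgprf held 185 members (25.9%). A cell cycle group held 50 members (6.99%) at 9 dpp and 20 (4.26%) at 14 dpp. A group led by Cyp17a1, Hsd3b6 and Star was found at 14 dpp, with 39 members (8.30%).

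The same rule applied to the cultured libraries took 1349 of 7130 filtered barcodes (18.9%) after 2 days and 824 of 4909 (16.8%) after 7 days. There Dcn stood at 6497 and 6883 CPM, within the in vivo range or just above it. Clec3b stood at 25.4 and 34.5 CPM, below the 332 CPM at 9 dpp and 834 CPM at 14 dpp in vivo. Dlk1 stood at 1352 and 2061 CPM, against 5239 and 1516 CPM in vivo. The listed chemokines and cytokines summed to 39121 and 5999 CPM in culture and to 853 and 811 CPM in vivo, and Ly6a stood at 1156 and 241 CPM in culture. The log2 ratio of the stroma share was 0.49 for the 2-day culture over 9 dpp and 1.18 for the 7-day culture over 14 dpp.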

How the data were processed

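The authors deposited raw UMI counts per gene and barcode for each library, from Cell Ranger 3.0.2 with mm10, per the submitters' processing notes. Cell calling settings are not given in the sources used here. Per the labels, cells were released with collagenase and trypsin and libraries made with the Chromium 3′ v2 kit. Gene positions came from GENCODE M21.

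The member rule, the lists and the tests were chosen with earlier results of these data known. Members' UMIs were summed per library, scaled to CPM, and 1 was added before log2 ratios. Genes with at least 50 UMIs over both ages were used, and a 2-fold ratio was the threshold. Scrublet (scanpy 1.11.5, expected rate 6%) was run per library and its calls were kept. Subgroups came from Leiden clustering (leidenalg 0.10.2, resolution 0.5, 15 components, 15 neighbours, 2000 variable genes), with no correction for library. Leading genes had 10 UMIs and 10% of the cells of the subgroup, the latter set after seeing the data. Named genes were the 12 largest ratios in each direction with an interval leaving out 0 and a level above that of the other barcodes, the 15 with the largest smaller ratio over other barcodes, and up to 6 per list. Ratio intervals are exact conditional binomial intervals. The calculation was tested on simulated data. Alternatives were TMM factors (edgeR 4.0.16), other constants, filters, gates and thinning depths, equal weights per cell, Scrublet calls removed and subgroups left out. Some listed genes are not reported here.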

Additional observations from a re-analysis of the deposited data

How the results depend on the processing

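With 1 library per group, no replicate could be left out. No paired analysis was possible because each group holds 1 library. With a constant of 10 there were 87 genes at least 2-fold higher and 62 lower at 14 dpp, since it shrinks the ratios of low genes. Taking genes with at least 1 UMI gave 690 higher and 625 lower, since more genes of low count enter. The median of the insulin-like growth factor list was 0.10 with cells weighted equally and 0.12 with the stroma gate at 0.4%. The log2 ratio of the stroma share was -0.69 with the stroma gate at 0.4% and -1.15 without subgroup 4, a direction set by its makeup (85 of 87 barcodes from 14 dpp), and the share of the 2-day culture over 9 dpp was 0.71 with at least 1000 genes and at most 10% mitochondrial UMIs. The cause of the other shifts was not tested. At 4000 UMIs and unthinned, the share with Dlk1 was 97.3% and 98.6% at 9 dpp and 69.7% and 74.3% at 14 dpp. The share with Clec3b was 49.8% and 56.1% at 9 dpp and 73.6% and 77.7% at 14 dpp. The share with 3 UMIs of the cell cycle list was 26.1% and 35.1% at 9 dpp and 17.9% and 21.9% at 14 dpp. The medians of 6 lists lying near 0 (matrix glycoproteins, matrix proteases, hedgehog, collagens, TGF-beta and BMP, niche growth factors) changed sign under at least 1 alternative, and 0 other results did. At this depth genes with few UMIs, such as P3h2 or Dkk3, have intervals wider than 2-fold.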
